A study of Mus musculus with 27 samples.

Results

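The clustered protocadherin genes lie in 3 tandem arrays, Pcdha (alpha), Pcdhb (beta) and Pcdhg (gamma), on mouse chromosome 18 of the build GRCm38. The members described here are the deposited methylation windows that overlap a Pcdha, Pcdhb or Pcdhg gene of RefSeq in a 1 Mb interval whose windows run from 36912164 to 37898244. The interval held 240 windows, of which 184 overlapped a member gene, 66 in alpha, 48 in beta and 70 in gamma, out of 453239 nuclear windows in all. A further 56 windows of the interval lay in no member gene. All but 1 of the member windows had a value in every library, so 183 were tested among 444250 windows. The exception was an alpha window at 37033583 to 37038262. The genes numbered 58, with 14 in alpha, 22 in beta and 22 in gamma, and each start fell in a window of its own.

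Protocadherins are cell-surface adhesion molecules of the cadherin superfamily, and neurons display different combinations of the clustered ones, by which a cell tells its own branches from those of others. Each alpha and gamma gene has a promoter and a large variable exon of its own, which is spliced to constant exons shared by the cluster, whereas beta genes consist of a variable exon alone. Promoters of most genes are chosen seemingly at random, with the insulator protein CTCF bound at the chosen ones and DNA methylation on silent ones. The C-type genes at the ends of the alpha and gamma arrays (Pcdhac1, Pcdhac2, Pcdhgc3, Pcdhgc4 and Pcdhgc5) are expressed more uniformly.

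Whole-genome bisulfite sequencing gave the percent of methylated CpGs, which does not separate 5-methylcytosine from 5-hydroxymethylcytosine. Mouse embryonic stem cells in 2i and LIF, a medium that holds them in the naive state, were the D0 samples, and cells on days 1 and 2 of conversion to epiblast-like cells were D1 and D2. In TET_KO the genes Tet1, Tet2 and Tet3, whose products oxidise 5-methylcytosine, are all knocked out; its parent is TET_WT. The line DNMT_WT is the unedited parent of a line without Dnmt1, Dnmt3a and Dnmt3b, and that knockout was not analysed here. Each line and day had 3 libraries, 27 in all. Each genotype is a cell line, so differences between lines are differences between those lines, and nothing in the labels says whether the 3 libraries came from separate cultures. The p-values then measure the spread between libraries, which may be technical. Without read counts in the table, sequencing depth is not known for any value.

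Over all tested windows, methylation averaged 25.5% ± 0.387 (SD, n = 3) in TET_WT on D0 and 52.5% on D2, 51.7% and 70.8% in TET_KO, and 3.20% and 49.6% in DNMT_WT. A window is named as holding 100 CpGs, so a short window is dense in CpGs. Member windows were shorter than usual, with median lengths of 2695 bp in alpha, 3654 bp in beta and 2052 bp in gamma against 5058 bp over all tested windows. A window was called when limma gave a Benjamini-Hochberg adjusted p under 0.05 over all tested windows and the group means lay 10 or more percentage points apart. Because whole libraries shifted between groups, each comparison is also given after subtracting each library's median.

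The 3 arrays were less methylated than the genome in both Tet lines on every day, and beta had the lowest mean of the 3 in each of their groups. In TET_WT on D0 the 3 libraries averaged 17.7%, 17.6% and 17.7% over alpha windows. Beta windows averaged 6.88%, 7.22% and 6.75% in the same libraries, and gamma windows 9.51%, 9.67% and 9.66%. No library of an array overlapped those of another array. By D2 the alpha mean in TET_WT was 27.9% ± 1.6 (SD, n = 3), the beta mean 16.6% ± 2.0 and the gamma mean 22.8% ± 1.3. In TET_KO the arrays already stood at 32.5% ± 0.93, 21.9% ± 0.64 and 28.3% ± 0.69 on D0, above every TET_WT library of D2. They ended at 42.9% ± 0.82, 34.2% ± 1.2 and 38.9% ± 0.72 on D2. DNMT_WT began at 3.61% ± 0.27, 0.678% ± 0.074 and 1.44% ± 0.085 and reached 24.2% ± 0.58, 17.9% ± 0.54 and 25.1% ± 0.28. The low place of beta rested in part on which windows were counted, since alpha and gamma include windows between exons and beta does not. On windows mostly inside a variable exon, gamma was the lowest array in every group of TET_WT and TET_KO. There beta averaged 6.47%, alpha 8.86% and gamma 4.13% in TET_WT on D0, and 31.8%, 27.3% and 26.9% in TET_KO on D2. The place of alpha above gamma rested in part on 7 highly methylated windows over a pseudogene, described further on, and on how windows were weighted. Without those 7, alpha averaged 22.6% in TET_WT on D2 and 27.8%, 31.7% and 38.4% in TET_KO on D0, D1 and D2, each slightly under gamma. In DNMT_WT on D0 the other alpha windows averaged 1.71%, under that line's genome mean of 3.20%. Weighted by window length, alpha was 30.8% and gamma 34.0% in TET_WT on D2, and 33.3% and 36.5% in TET_KO on D0. The weighted gamma mean of TET_WT on D0 was 14.7%.

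**Figure D1:**
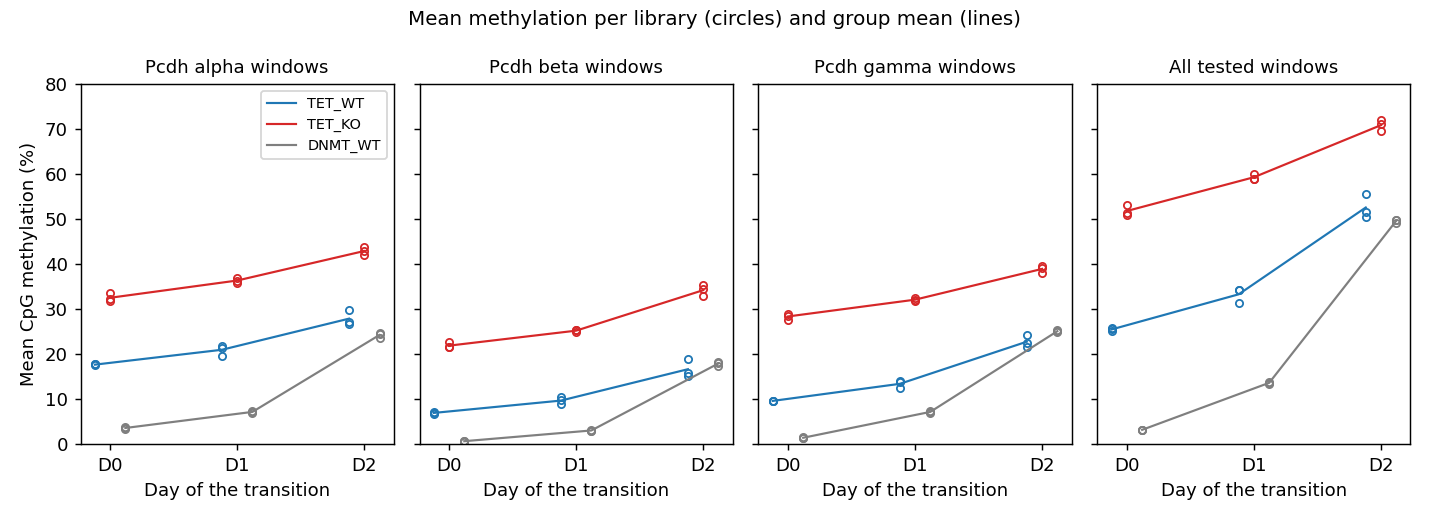
Mean CpG methylation in percent (vertical axis) on D0, D1 and D2 (horizontal axis) for the alpha, beta and gamma windows and for all tested windows, with circles for libraries and lines joining group means of TET_WT, TET_KO and DNMT_WT. TET_KO lies above the other lines in each panel, and its D0 array means of 32.5%, 21.9% and 28.3% exceed the TET_WT means of D2.

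Within alpha and gamma, methylation was lower on average on the variable exons, whose windows were also short. Low values also occurred elsewhere: the window at the shared end of the gamma genes, described further on, held no variable exon and averaged 0.403% in TET_WT on D0. Exons were taken as the first 2500 bp of each gene, since the gene table gives no exon positions. Alpha windows mostly inside a variable exon averaged 8.86% ± 0.56 (SD, n = 3) in TET_WT on D0, against 31.9% ± 1.1 in alpha windows between exons. The same windows of gamma averaged 4.13% ± 0.14 and 18.5% ± 0.52. On D2 the contrast was wider in points for both arrays, with 14.0% ± 1.2 and 49.0% ± 2.8 in alpha and 10.8% ± 0.79 and 48.8% ± 2.2 in gamma. The alpha windows between exons included windows over a pseudogene, described further on, at 51.9% to 73.5% in TET_WT on D0. Outside that block, the 7 alpha windows behind the Pcdhac2 exon averaged 22.6% on D0 and 48.2% on D2. Windows between beta genes overlap no member gene and were not counted in the array, so no beta window lay between exons. Those 8 windows averaged 14.4% ± 0.84 in TET_WT on D0 and 27.5% ± 1.4 on D2. Beta windows mostly inside an exon averaged 6.47% ± 0.46 on D0 and 15.5% ± 2.5 on D2. Median window lengths were 1101 bp on exons and 5787.5 bp between them in alpha, and 1155 bp and 5602 bp in gamma. All tested windows of TET_WT on D0 averaged 9.32% under 2000 bp and 25.8% above 5000 bp. Position on an exon was not told apart from window length, and the contrast was not tested.

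**Figure D2:**
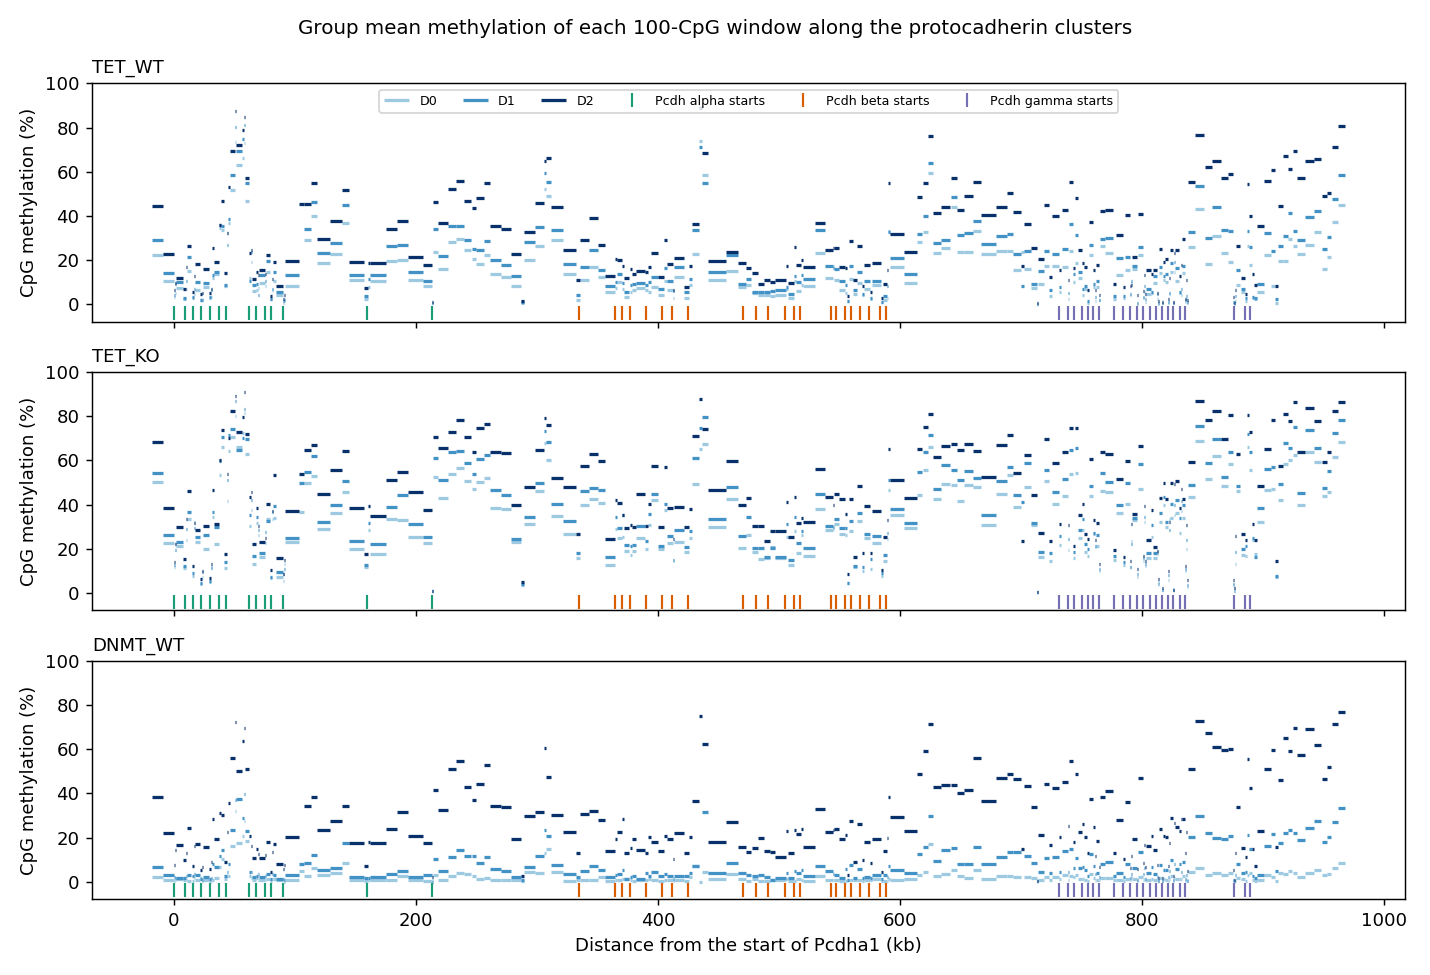
Group mean methylation in percent (vertical axis) of each window, drawn as a bar over its extent, by distance in kb from the start of Pcdha1 (horizontal axis), in 3 panels for TET_WT, TET_KO and DNMT_WT with D0, D1 and D2 in darkening blue. Ticks mark gene starts, where methylation is low, and a narrow peak stands between Pcdha7 and Pcdha8.

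On the first day of conversion to epiblast-like cells, changes in the arrays were mostly small. From D0 to D1, 10 of 183 member windows were called higher in TET_WT, where 27.6% of all tested windows were called higher. Of these, 9 were gamma and 1 alpha. With an adjusted p under 0.05 at any size, 70 member windows were higher and 1 lower in TET_WT, beside 80.8% of all windows higher, and 88 were higher and 2 lower in TET_KO, beside 83.3%. The median change of a member window in TET_WT was 2.68 points. DNMT_WT had 16 called higher, beside 49.0% of all windows, and TET_KO 8 higher, beside 20.1%. In neither daily step of any line, nor in TET_KO against TET_WT on any day, was a member window called lower before centring. The TET_KO count fell to 5 without D0 replicate 2 or without D1 replicate 2. After subtracting library medians, which rose by 8.46, 10.3 and 8.43 points, 2 member windows were lower in TET_WT, 9 in DNMT_WT and 4 in TET_KO, beside 0.220%, 2.99% and 0.216% of all windows.

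From D1 to D2, 48 of 183 member windows were called higher in TET_WT, beside 88.0% of all tested windows. The gains were spread over the arrays, with 16 of 65 windows in alpha, 7 of 48 in beta and 25 of 70 in gamma. The median gain of a member window was 6.17 points, against 20.4 over all tested windows. The gap in the share called was present in each length class, but not that in the median gain. Under 2000 bp, 11.8% of member windows and 23.0% of all tested windows of that length were called higher, whereas the median gain was 4.10 points in member windows and 2.09 over all. Member windows of 2000 to 5000 bp were called higher in 28.4% of cases and all tested windows of that length in 95%, and above 5000 bp the shares were 50% and 91.8%. In DNMT_WT the shares under 2000 bp stood the other way, at 53.9% of member windows and 36.7% of all. TET_KO had 50 member windows higher, beside 65.8% of all windows, and DNMT_WT 136 higher, beside 94.9%. Centred on library medians, which rose by 22.4 points in TET_WT, 153 member windows were lower, beside 17.8% of all windows. The centred counts were 41 lower in TET_KO, beside 4.89%, and 158 lower in DNMT_WT, beside 25.4%.

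Gene starts gained methylation in TET_WT from D1 to D2, mostly by less than the minimum size. The difference was positive at all 58 windows that hold a gene start, with a median of 5.16 points, and 50 had an adjusted p under 0.05 at any size, beside 95.3% of all tested windows. With the minimum of 10 points 5 were called, beside 88.0% of all windows, namely those of Pcdhb18, Pcdhb19, Pcdhga2, Pcdhga12 and Pcdhgc5. The start window of Pcdhb19 measured 9.03%, 11.5% and 8.05% in the TET_WT libraries of D0 and 30.0%, 25.7% and 23.7% on D2. All its D2 values lay above its D0 values, and its D1 to D2 gain was 12.1 points ± 1.72 (SE, limma adjusted p 1.97e-07). The gain at Pcdhga2 was 17.7 ± 2.51 points, but its start lies at the very end of its start window, 0.6% of which follows the start. In TET_KO 12 start windows were called higher over the same day, 11 of them beta and the other that of Pcdhga2, beside 65.8% of all tested windows. DNMT_WT had 37, beside 94.9%. Centred on library medians, every one of the 5 TET_WT gains became a lower value.

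Loss of the Tet enzymes was accompanied by higher methylation over most of the arrays in naive cells. On D0, 135 of 183 member windows were called higher in TET_KO than in TET_WT, beside 92.9% of all tested windows. By array, 40 of 65 alpha, 40 of 48 beta and 55 of 70 gamma windows were called. The median difference was 15.5 points, against 27.5 over all tested windows. On D1 there were 138 higher (92.6% of all windows), and on D2 143 higher (84.3%), with a median of 17.2 points on D2 against 17.9 over all windows. Library medians were higher in TET_KO by 30.4, 30.3 and 20.7 points on the 3 days. Relative to them, 131, 121 and 49 member windows were lower in TET_KO, beside 19.2%, 19.8% and 18.0% of all windows.

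CpG-dense windows of the arrays stood apart from other windows of their length. Of the 76 member windows under 2000 bp, 61.8% were called higher in TET_KO on D0, against 31.1% of all tested windows of that length, and the median difference was 14.3 points against 2.93. Longer member windows went the other way, with medians of 16.3 points against 29.5 at 2000 to 5000 bp and 15.7 against 27.1 above 5000 bp. On D2 the short member windows still differed by a median of 15.1 points, and short windows of the genome by 2.33. Across the 183 member windows, length and the D0 difference had a Spearman rho of 0.201, and length and the TET_WT level on D0 one of 0.501, over windows that share libraries and neighbours. These comparisons by length describe the windows and were not tested.

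**Figure D3:**
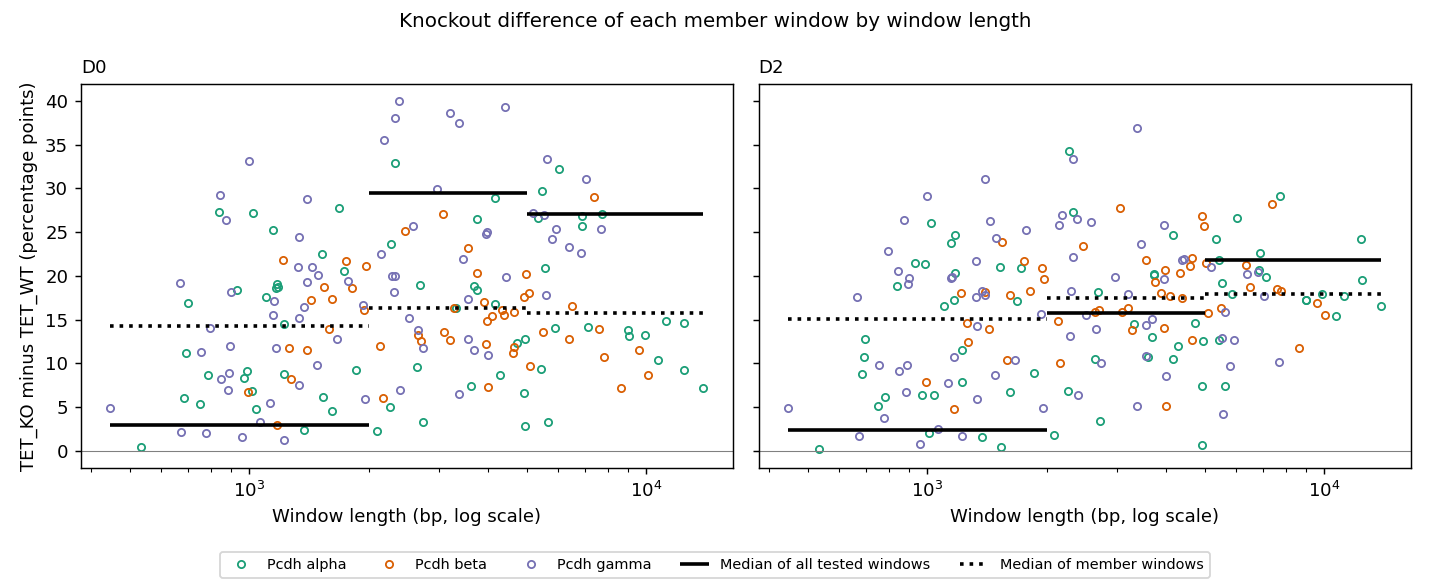
Difference of TET_KO from TET_WT in percentage points (vertical axis) against window length in bp on a log scale (horizontal axis) for each member window, on D0 and D2, coloured by array. Solid lines give the median of all tested windows in each length class and dotted lines that of member windows, which on D0 is 14.3 against 2.93 points under 2000 bp and 16.3 against 29.5 points at 2000 to 5000 bp.

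At gene starts the 3 arrays differed in how often TET_KO was called higher on D0. The call was made at 20 of 22 beta start windows, 14 of 22 gamma and 1 of 14 alpha, beside 92.9% of all tested windows. The beta share is thus near that of the genome over all lengths and the others below it. By length, the genome share was 31.1% under 2000 bp, 96.3% at 2000 to 5000 bp and 99% above. Start windows had a median length of 3154 bp, and their calls were not split by length. Median differences were 13.8, 12.3 and 5.79 points. Pcdha8 was the alpha gene called. The beta genes not called were Pcdhb2 and Pcdhb13, whose differences of 7.19 ± 0.81 and 9.72 ± 1.19 points (SE) missed the minimum size. The difference between arrays was not tested.

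Among beta genes, Pcdhb19, Pcdhb17 and Pcdhb16 had the largest D0 differences. The start window of Pcdhb19 measured 32.5%, 29.5% and 36.0% in the TET_KO libraries of D0, all above the 3 TET_WT values given earlier. Its difference was 23.1 points ± 1.72 (SE, limma adjusted p 3.56e-13). Those of Pcdhb17 and Pcdhb16 were 21.1 ± 1.82 and 20.3 ± 2.32 points. In gamma, Pcdhgb8 measured 4.23%, 5.21% and 4.90% in TET_WT and 26.9%, 27.2% and 27.5% in TET_KO on D0. The libraries of each line agreed to within about a point, and the difference was 22.4 ± 1.25 points (limma adjusted p 1.65e-15). Pcdhga4 was nearly unmethylated in TET_WT on D0, at 0.0702%, 0.734% and 0% in the libraries, and stood at 19.4%, 15.1% and 15.7% in TET_KO. Relative to library medians, Pcdhb19 and Pcdhgb8 were lower in TET_KO, by -7.23 and -7.93 points.

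**Figure D4:**
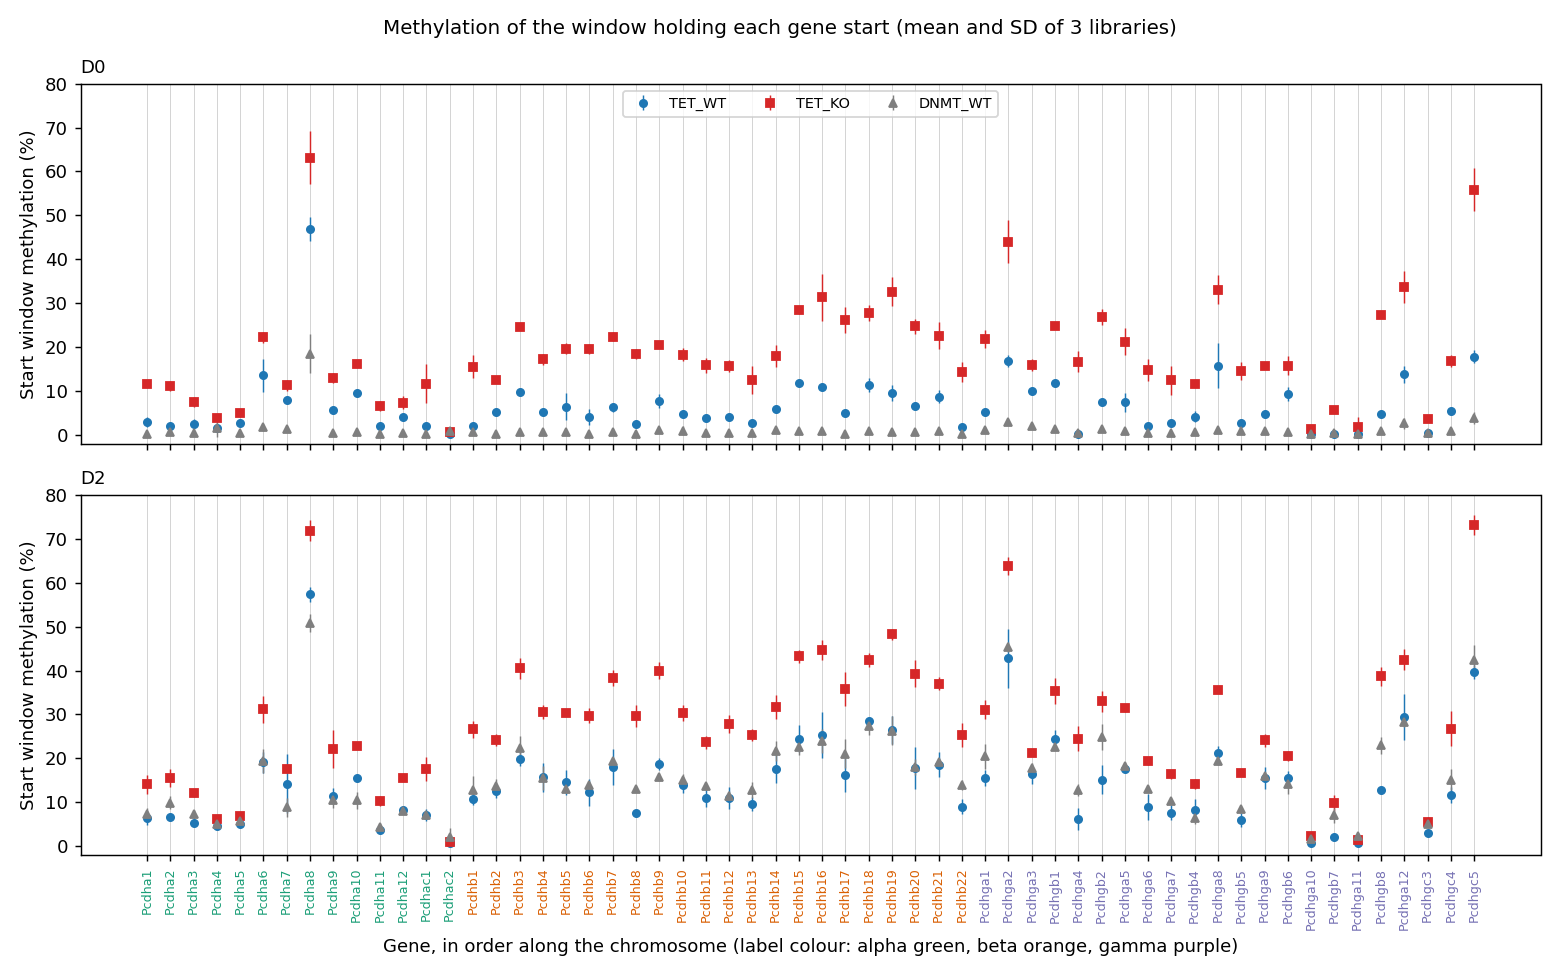
Methylation in percent (vertical axis; mean with the SD of 3 libraries) of the window holding the start of each of the 58 genes in chromosomal order (horizontal axis), on D0 and D2 for TET_WT, TET_KO and DNMT_WT. Pcdha8 and Pcdhgc5 stand high, Pcdhac2, Pcdhga10 and Pcdhga11 lie near 0 in all lines, and beta genes separate TET_KO from the others throughout.

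Calls inside the genes were counted separately from those at the start. The window with the largest overlap with the first 2500 bp of each gene, a measure added after the files were seen, was called higher in TET_KO on D0 for 8 of 14 alpha genes, 22 of 22 beta genes and 19 of 22 gamma genes, again beside 92.9% of all tested windows. Their median differences were 16.0, 17.3 and 19.98 points. Pcdhga10 shows the step within 1 gene. Its start window, 1221 bp at 37746526 to 37747746, measured 1.01%, 1.41% and 1.90% in TET_KO on D0 and 0.145%, 0.119% and 0.304% in TET_WT. The next window, at 37747756 to 37749152, measured 42.3%, 33.6% and 42.8% in TET_KO and 13.0%, 9.93% and 9.57% in TET_WT. So the start stayed under 2% in both lines on D0 while the exon behind it held values up to 42.8% in TET_KO.

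The neighbouring gamma genes Pcdhga11 and Pcdhgb7, picked after their values were seen, showed a similar step between windows. At Pcdhga11 the start window averaged 0.33% in TET_WT and 1.90% in TET_KO on D0, and the window after it 14.4% and 35.4%. At Pcdhgb7 the start window averaged 0.19% and 5.62%, and the window after it 4.27% and 33.6%. That start window also has the largest overlap with the first 2500 bp of Pcdhgb7, so by the exon measure this gene was low and not called. In alpha, the window inside Pcdha11 at 37011525 to 37012546 measured 5.14%, 8.25% and 5.20% in TET_WT on D0 and 30.4%, 33.7% and 35.9% in TET_KO. The start window of Pcdha11 averaged 2.0% and 6.6% in the same groups. At each of these windows inside the genes the difference was smaller than the 30.4 points between library medians. Those of Pcdhgb7 and Pcdha11 are under 2000 bp long, and over all tested windows of that length the median D0 difference was 2.93 points.

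The C-type genes had start windows that ranged widely, while the windows over their exons were all called higher in TET_KO. By the exon measure used above, 5 of 5 were called on D0, D1 and D2, beside 92.9%, 92.6% and 84.3% of all tested windows. The D0 median of these exon windows was 20.6 points, and 1 of the 5 stayed positive relative to library medians. For Pcdhgc5 the exon window and the start window are the same. Pcdhac2, the last alpha gene, had a start window of 534 bp that stayed near 0 in nearly every library. It measured 0.284%, 0% and 0.505% in TET_WT on D0 and 0.915%, 0.278% and 0.979% in TET_KO, a difference of 0.46 ± 0.61 points (limma adjusted p 0.469). The highest value in any line on D0 or D2 was 4.17%, in DNMT_WT on D2. Pcdhgc3 measured 0.304%, 0.537% and 0.346% in TET_WT and 3.81%, 3.59% and 3.72% in TET_KO on D0, without overlap, but its 3.31 ± 0.47 points fell short of the minimum size. Pcdhac1 had a difference of 9.60 ± 1.41 points, and 1 TET_KO library, at 16.9%, stood above the other two, at 9.51% and 8.72%. Pcdhgc4 was called higher in TET_KO on D0, by 11.5 ± 1.48 points.

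Pcdhgc5, the last gamma gene, lay at the other end of the range. Its start window measured 18.2%, 19.1% and 16.3% in TET_WT on D0 and 60.6%, 56.2% and 50.9% in TET_KO. On D2 the values were 41.2%, 38.0% and 40.0% in TET_WT and 71.2%, 75.6% and 72.4% in TET_KO. The D0 difference of 38.0 ± 2.22 points (limma adjusted p 3.55e-15) was the largest of the 58 start windows. Relative to library medians it remained positive, at 7.63 points, whereas those of the other C-type genes became negative, between -29.9 and -18.9.

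The windows at the shared ends of the alpha and gamma genes, where the constant exons lie, differed in level. Each array has 1 such window, and 47.3% of the alpha one and 76.6% of the gamma one lies in a member gene, the rest being sequence past the genes. The window at the shared end of the alpha genes, 37186323 to 37191771, averaged 22.2% ± 0.95 (SD, n = 3) in TET_WT on D0 and 54.6% ± 4.8 on D2, and 51.9% ± 1.3 and 76.4% ± 0.42 in TET_KO. The window at the shared end of the gamma genes, 37840038 to 37842433, averaged 0.403% ± 0.35 and 8.20% ± 1.7 in TET_WT and 7.32% ± 2.2 and 14.5% ± 3.1 in TET_KO. In DNMT_WT it averaged 0.249% ± 0.10 on D0 and 15.8% ± 1.0 on D2.

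A block of high methylation interrupted the alpha array between Pcdha7 and Pcdha8. It coincides with the pseudogene Gm36858, annotated at 36976294 to 36990270. The 7 windows overlapping it averaged 58.7% ± 3.7 (SD, n = 3) in TET_WT on D0, and the 58 other alpha windows 12.7% ± 0.40. In TET_KO the averages were 71.2% ± 1.5 and 27.8% ± 0.86, and in DNMT_WT, whose genome mean on D0 was 3.20%, they were 19.3% ± 2.2 and 1.71% ± 0.05. Of the 7 windows, 3 were called higher in TET_KO than in TET_WT on D0, beside 92.9% of all tested windows. The start window of Pcdha8 overlaps the end of this block, and only 4.4% of it follows the start. It measured 45.8%, 49.9% and 44.8% in TET_WT on D0 and 59.2%, 60.1% and 70.2% in TET_KO. The next window downstream, inside Pcdha8, averaged 11.6% and 30.3%. The level of the Pcdha8 start window is thus mostly that of sequence before the gene.

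Naive TET_KO cells were also compared with TET_WT cells of D2, whose library medians differed by -0.477 points. Here 36 of 183 member windows were higher in TET_KO of D0 and 3 lower, beside 6.02% and 7.08% of all tested windows. Under 2000 bp 30.3% of member windows were higher, and 6.72% of all windows of that length. Centred on library medians the counts were 41 and 3, beside 6.84% and 6.05%. The start windows called were those of Pcdhb8, Pcdhb17, Pcdhga4, Pcdhgb2, Pcdhga8, Pcdhgb8 and Pcdhgc5, all higher. Pcdhb8 measured 17.2%, 18.8% and 19.3% in TET_KO on D0 and 6.63%, 8.19% and 7.78% in TET_WT on D2, a difference of 10.9 ± 1.11 points (limma adjusted p 2.56e-08). The window inside Pcdha11 named above had the largest difference, 22.2 ± 2.11 points, with TET_WT libraries of D2 at 14.0%, 8.85% and 10.5%. The 3 lower windows lay between gamma exons.

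The gain from D0 to D2 differed between TET_KO and TET_WT at 15 of 183 member windows, 4 with a larger gain in TET_KO and 11 with a smaller one. Over all tested windows 2.50% had a larger and 44.2% a smaller gain. On the logit scale 8 member windows were called, all with a smaller gain, so none of the 4 larger gains was called there. Centred on library medians, where the shift was -9.64 points, 86 member windows had a larger gain in TET_KO and 1 a smaller one, beside 17.9% and 8.45% of all windows. All 11 windows with a smaller gain were gamma. Of them, 6 were the windows from behind the Pcdhga12 exon to Pcdhgc3, which went from 26.8% ± 1.0 to 62.5% ± 2.5 (SD, n = 3) in TET_WT and from 55.5% ± 1.1 to 76.2% ± 1.5 in TET_KO. Smaller gains were not confined to the array: all 10 tested windows of the interval downstream of gamma, over Diaph1 and not members, were called too. No start window was called in this comparison, where limma gave a median of 0.54 points over the 58.

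Away from Tet loss, the wild-type lines differed at more member windows on D0 than on D2. On D0 DNMT_WT was lower than TET_WT at 61 of 183 member windows, beside 88.9% of all tested windows. The 10 start windows called lower were those of Pcdha6, Pcdha8, Pcdhb15, Pcdhb16, Pcdhb18, Pcdhga2, Pcdhgb1, Pcdhga8, Pcdhga12 and Pcdhgc5. The library medians of DNMT_WT were lower by -22.9 points, and relative to them 135 member windows were higher, beside 15.8% of all windows. On D2 DNMT_WT was higher at 7 member windows and lower at 14, beside 1.78% and 10.5% of all windows, and at 12 and 10 after centring, beside 4.14% and 4.76%. Pcdhgb8 was the one start window called, at 22.7%, 21.2% and 25.0% in DNMT_WT and 13.4%, 12.1% and 13.1% in TET_WT. Over the 183 member windows the D2 levels of the 2 wild-type lines had a Spearman rho of 0.940, with windows sharing their base composition.

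Protocadherin genes outside the clusters were measured as the mean of all windows over the gene. Of 12, 11 were called higher in TET_KO on D0, beside 96.2% of 21430 protein-coding genes. The exception was Pcdh8, whose difference was 7.82 ± 0.68 points (SE). On D2 11 were again higher, beside 85.8% of genes, and their median difference was 24.9 points against 14.9 over all genes. The shift of library medians, 30.4 points on D0 and 20.7 on D2, was exceeded on D0 by Pcdh12 alone among the 12 and on D2 by 9 of them. That shift is taken over windows and not over genes. By gene, the D0 median difference of the 12 was 23.6 points, against 25.2 over all genes. Pcdh9 had the largest D2 difference, 36.8 ± 1.195 points. The D0 to D2 gain was smaller in TET_KO at 1 of the 12, Pcdh12, by -10.8 ± 1.49 points, beside 46.3% of all genes. Genes that regulate protocadherin promoters or DNA methylation numbered 17. Among them were Ctcf, the cohesin gene Rad21 and Smchd1, and also Tet1, Tet2 and Tet3, the genes knocked out in TET_KO. Of the 17, 16 were higher in TET_KO on D0, near the 96.2% of all genes. A smaller gain in TET_KO was called at 13, beside 46.3% of all genes.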

How the data were processed

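The authors deposited CpG methylation as a percent per library and window, and no counts. Per the submitters' processing notes the tools were Trim Galore 0.6.6, cutadapt 2.3 and Bismark 0.23.0 with GRCm38. How windows were filled and filtered is not given in the sources used here. Per the labels, DNA was sheared, bisulfite converted and amplified with a polymerase that reads uracil.

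Windows were assigned to arrays by overlap with RefSeq genes (GRCm38.p6). That table gives no strand, so the lower coordinate was taken as the start. The model of limma 3.58.1 (R 4.3.3, trended variance) had a mean for each of 9 groups over 27 libraries, with 18 residual degrees of freedom and Benjamini-Hochberg adjustment over 444250 windows. It was checked on simulated data. Array means carry no test. The members and lists were chosen with earlier results of these data known. Full statistics were given to start windows of C-type genes and, by array, to the 3 largest and 2 smallest differences per comparison, and to the 5 windows with the largest differences. Other genes and windows, among them Pcdhga4 and the windows behind the starts of Pcdhga10, Pcdhga11 and Pcdhgb7, were named after their values were seen. Alternatives were other thresholds, centring on library medians, a logit scale, other fits, a replicate block, libraries left out and other window assignments. No sequence is shown. Figures used Python 3.11.15 and matplotlib 3.10.9.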

Additional observations from a re-analysis of the deposited data

Results flagged for a closer look

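The D0 to D2 gain differed between TET_KO and TET_WT by a limma test of the difference itself at 15 member windows. A smaller gain in TET_KO was called at 11 windows and a larger gain at 4, beside 44.2% and 2.50% of all tested windows. At any size 15 gains were smaller and 27 larger, beside 56.4% and 6.11% of all windows. Centred on library medians, 1 was smaller and 86 larger, beside 8.45% and 17.9%. The most negative difference, -20.7 points ± 3.48 (SE, adjusted p 1.91e-05), was at 37836809 to 37840013, between Pcdhgc5 and the window at the shared gamma end. There the TET_WT libraries measured 8.74%, 6.19% and 9.80% on D0 and 65.1%, 61.4% and 55.5% on D2, and the TET_KO libraries 48.7%, 43.1% and 48.8% on D0 and 77.6%, 81.4% and 76.6% on D2. The largest positive difference, 12.2 points ± 3.93 (adjusted p 0.00871), was inside Pcdha7 at 36974471 to 36975457, and on the logit scale neither it nor any other member window was called with a larger gain. The TET_WT libraries there measured 38.1%, 26.0% and 32.8% on D0 and 30.8%, 34.7% and 31.4% on D2, and overlapped. The TET_KO libraries measured 40.5%, 44.4% and 39.3% on D0 and 51.8%, 59.9% and 49.3% on D2, without overlap. The other 3 windows with a larger gain were nearest to the starts of Pcdha11, Pcdhac1 and Pcdhb10.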

How the results depend on the processing

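The counts of member windows called in the 13 comparisons kept their direction and stayed within 1.5 times when the fit used the compared groups only, when variance had no trend, when windows with missing values were kept, when at least 50% of a window had to lie in a member gene, and under a replicate block. Same-numbered libraries did not deviate together (correlations of -0.0549 to 0.0570 over 108 pairs, and 9 of 27 libraries closest to their own number), so the numbers were not taken as pairs, and the replicate block changed no count of calls beyond 1.5 times. With the block, the count was 135 in place of 136 for D1 to D2 in DNMT_WT and equal in the other comparisons (10 and 48 for the daily steps of TET_WT, for example).

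With a minimum of 20 points the counts fell to 0 (D0 to D1 in TET_WT), 14 (D1 to D2 in TET_WT), 1 and 49 (the same steps in DNMT_WT), 0 and 1 (in TET_KO), 55, 62 and 58 (TET_KO against TET_WT on D0, D1 and D2), 1 (difference of gains), 28 and 1 (DNMT_WT against TET_WT on D0 and D2) and 3 (TET_KO on D0 against TET_WT on D2). With differences of any size they were 71, 150, 69, 90, 147, 139 and 123 for D0 to D1 and D1 to D2 in TET_WT, D0 to D1 in DNMT_WT, both steps in TET_KO, DNMT_WT against TET_WT on D0, and TET_KO on D0 against TET_WT on D2. The direction of the majority reversed for the difference of gains (42) and DNMT_WT against TET_WT on D2 (69). On the logit scale the difference of gains had 8, all smaller in TET_KO.

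Centred on library medians, the majority reversed in 12 of 13 comparisons: 2, 155, 10, 158, 4 and 41 windows were called for the daily steps of TET_WT, DNMT_WT and TET_KO in turn, 131, 121 and 53 for TET_KO against TET_WT on the 3 days, 87 for the difference of gains, and 143 and 22 for DNMT_WT against TET_WT on D0 and D2. Leaving out libraries gave 5 to 12 for D0 to D1 in TET_KO.

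Means weighted by window length moved by more than 1 SD in alpha, to 2.94%, 6.77% and 26.6% in DNMT_WT on D0, D1 and D2, 38.1% and 47.8% in TET_KO on D1 and D2, and 18.1%, 22.3% and 30.8% in TET_WT. In beta, DNMT_WT on D1 moved to 2.94%. In gamma they were 1.98%, 10.3% and 34.5% in DNMT_WT, 36.5%, 41.4% and 50.5% in TET_KO, and 14.7%, 20.4% and 34.0% in TET_WT. Requiring 50% of a window in a gene gave 17.6% for alpha in TET_WT on D0, and for beta 3.22% and 18.5% in DNMT_WT on D1 and D2, 22.7% and 26.0% in TET_KO on D0 and D1, and 7.47% in TET_WT on D0. Depth per window is unknown, so which small differences depth limits cannot be stated.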
